A study of Mus musculus with 24 samples.

Results

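Open chromatin of the liver on control diet was compared between A/J and C57BL/6J mice, a pair of inbred strains. The comparison rests on 2 peak lists of FAIRE-seq, 1 per strain. Peaks on chromosomes 1 to 19 were merged wherever they shared 1 bp or more, within a strain or between strains. This gave 45797 regions, set against 49364 regions when all 6 FAIRE lists of the series were merged in the same way. Regions with peaks of one strain alone were called A/J-only or C57BL/6J-only, and regions with peaks of both were called shared.

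Both groups ate control diet for 16 weeks and held 2 libraries each. The other FAIRE lists of the series are of A/J and C57BL/6J liver after 16 weeks of high fat diet (HF), or after 8 weeks of high fat diet followed by 8 weeks of control diet (Reversal), and they serve here as lists that the definition of the regions did not use. The sources used here give no sex or age, and say nothing of pooled animals or libraries. The liver label could not be checked against marker genes, because no gene positions in the build of the lists (mm9) were at hand, and for the same reason no region is tied to a gene. Depth per library is unknown, and with 1 list per strain no difference between strains has a replicate check or a test. Intervals on shares are 95% Wilson intervals and cover counting error only.

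FAIRE recovers the DNA that stays in the aqueous phase after formaldehyde crosslinking, shearing and phenol extraction. Nucleosomes crosslink well, so that the recovered DNA is enriched for stretches with few nucleosomes, such as active promoters and enhancers. C57BL/6J is the strain of the mouse reference genome, and it is known to gain weight and fat on a high fat diet more readily than A/J. Both strains carry fixed sequence differences throughout their genomes, and such differences can alter binding sites, copy number and the mapping of reads to a C57BL/6J reference alike.

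The A/J list held 35811 peaks on these chromosomes and the C57BL/6J list 33948, covering 23.6 Mb and 19.4 Mb. Median peak width was 502 bp in A/J and 413 bp in C57BL/6J. Peak names carry serial numbers that ran to a total of 135733 in A/J and 237699 in C57BL/6J, so that the lists held 26.4% and 14.3% of the peaks numbered. The weakest listed peak had a signal of 0.119 in A/J and 0.0849 in C57BL/6J, and the median peak 0.3215 and 0.168. The signal of a peak is a value set by the authors in units they do not state, and it serves only to rank peaks within a list. A region without a peak is one that did not reach its list.

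Of the 45797 regions, 12838 were A/J-only, which is 28.0% (27.6 to 28.4), and 10195 were C57BL/6J-only, which is 22.3% (21.9 to 22.6). The other 22764 regions, 49.7% (49.2 to 50.2), were shared. A/J-only regions made up 36.1% of the regions with an A/J peak, and C57BL/6J-only regions 30.9% of the regions with a C57BL/6J peak. By bases, 15.1 Mb lay under peaks of both strains, which is 63.9% of the A/J bases and 77.6% of the C57BL/6J bases. The same merging gave 65.0% shared regions between the strains on HF and 58.7% on Reversal, so that the control lists had the smallest overlap of the 3 diets. The control list was also the longest of each strain. The A/J and C57BL/6J lists held 33216 and 32116 peaks on HF and 34741 and 31669 on Reversal. Overlap at equal list length was not compared between diets. On HF 7646 regions were A/J-only and 6002 C57BL/6J-only, and on Reversal 10130 and 6879.

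The strain-only regions were mostly weak and narrow. A/J-only peaks had a median position of 74.7% in the A/J list, where 0% is the strongest peak and 100% the weakest, and C57BL/6J-only peaks had a median position of 74.6% in theirs. Peaks in shared regions had median positions of 33.0% in the A/J list and 36.9% in the C57BL/6J list. Only 15.3% of A/J-only peaks and 16.6% of C57BL/6J-only peaks stood in the stronger 50% of their list. In the strongest 10% of each list, 3 of 3581 A/J peaks and 26 of 3394 C57BL/6J peaks had no partner in the other strain. In the weakest 10%, the counts were 2718 of 3582 A/J peaks (75.9%) and 2176 of 3395 C57BL/6J peaks (64.1%). The share thus climbed along both lists, and it was higher in C57BL/6J in the strongest 30% and higher in A/J in the remaining 70%.

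**Figure D1:**
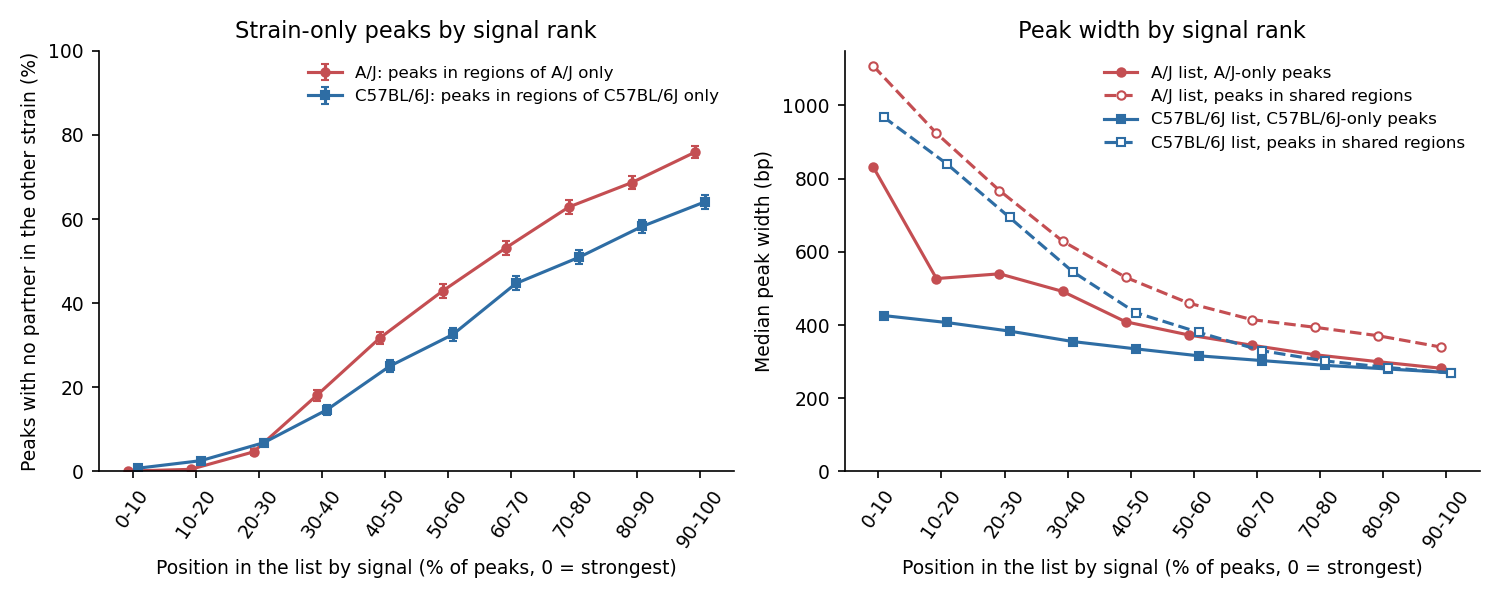
Left, percent of peaks in each 10% of the A/J and C57BL/6J control lists, from strongest to weakest signal, that lay in a region of that strain only, with 95% Wilson intervals. Right, median width in bp of strain-only peaks (solid) and of peaks in shared regions (dashed) in the same steps: strain-only shares climb to 75.9% in A/J and 64.1% in C57BL/6J, and C57BL/6J-only peaks are far narrower than shared peaks at the strong end.

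Median width was 339 bp for A/J-only peaks and 304 bp for C57BL/6J-only peaks, against 688 bp and 551 bp for peaks in shared regions of the same lists. Peaks over 1000 bp wide made up 1.82% of A/J-only and 1.38% of C57BL/6J-only peaks, and 27.0% and 17.8% of the peaks in shared regions. Width also went with rank, and weak peaks were narrow. Among the weakest 10% of peaks, A/J-only peaks measured 282 bp against 340 bp for shared ones, while C57BL/6J-only peaks measured 270 bp against 269 bp. Among the strongest 10%, the 26 C57BL/6J-only peaks had a median width of 426 bp and lay between 377 and 471 bp, against a median of 968.5 bp for the shared peaks of that part of the list. The 3 A/J-only peaks of the strongest 10% had a median width of 831 bp, against 1107.5 bp.

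The strongest A/J-only region lay on chromosome 6 from 146803325 to 146804155 (mm9, 1-based), with rank 343 of 35811 and a signal of 2.6367. It ranked 173 in A/J HF and 175 in A/J Reversal and had no peak in the C57BL/6J HF or Reversal list. The other 3 among the 5 strongest of this class showed the same pattern of a peak in all A/J lists and none in any C57BL/6J list. They lay on chromosome 5 from 117534972 to 117536162 at rank 3369, on chromosome 3 from 137875363 to 137875794 at rank 3665, and on chromosome 15 from 36885029 to 36885742 at rank 3698. The second, on chromosome 4 from 62156939 to 62157690 at rank 1711, held a peak in all 4 lists of the other diets, with positions of 17.5% and 6.24% in A/J HF and Reversal and 60.8% and 56.0% in C57BL/6J HF and Reversal.

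Among all 21 A/J-only peaks in the strongest 20% of the A/J list, each had a peak in A/J HF and in A/J Reversal, at median positions of 18.9% and 16.8%. A C57BL/6J peak was present for 8 of them on HF and for 9 on Reversal. Where present, it stood in the middle or lower part of the list, from 39.2% to 79.1% on HF and from 46.8% to 80.1% on Reversal.

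The strongest C57BL/6J-only region lay on chromosome 14 from 102959905 to 102960340, with rank 404 of 33948 and a signal of 1.1918. It had a peak at 51.9% of the A/J HF list, none in A/J Reversal, and peaks at 6.43% and 11.2% of the C57BL/6J HF and Reversal lists. The next was on chromosome 6 from 103264469 to 103264845 at rank 485, with no peak in any A/J list and positions of 11.2% and 10.7% in C57BL/6J HF and Reversal. The other 3 among the 5 strongest lay on chromosome 3 from 17285023 to 17285452, chromosome 12 from 38573437 to 38573855 and chromosome 7 from 60025672 to 60026100, at ranks 573, 732 and 780. These 3 had a peak at 53.9%, 56.4% and 56.2% of the A/J HF list and none in A/J Reversal.

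The strong C57BL/6J-only regions as a set also differed between the A/J lists. Of the 26 in the strongest 10% of the C57BL/6J list, 24 held a peak in A/J HF and 1 in A/J Reversal, and all 26 held a peak in both other C57BL/6J lists. Their A/J HF peaks stood between 45.6% and 94.8% of that list and had a median width of 298.5 bp. The next 10% of the C57BL/6J list held 87 C57BL/6J-only peaks, of which 71 had a peak in A/J HF and 4 in A/J Reversal. Most of these regions, which by definition had no A/J Control peak, thus had a peak in the A/J HF list and few had one in the A/J Reversal list. With 1 list per diet, a difference between the A/J lists cannot be told apart from a difference between their libraries.

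Over all 10195 C57BL/6J-only regions, 15.2% (14.5 to 15.9) held an A/J HF peak and 2.52% (2.23 to 2.84) an A/J Reversal peak, while 53.3% held a C57BL/6J HF peak and 49.8% a C57BL/6J Reversal peak. No A/J list of any diet held a peak in 8551 of them (83.9%). In 3032 regions (29.7%) both other C57BL/6J lists held a peak and no A/J list did. In 3754 (36.8%) no peak was present in any of the 4 lists of the other diets.

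A/J-only regions recurred more often within their own strain. Of the 12838, 62.5% (61.6 to 63.3) held an A/J HF peak and 80.0% (79.3 to 80.7) an A/J Reversal peak, while 21.3% held a C57BL/6J HF peak and 21.1% a C57BL/6J Reversal peak. Peaks in both other A/J lists and in no C57BL/6J list were found in 4285 regions (33.4%), and 1841 regions (14.3%) had no peak in any of the 4 lists. On the other diets 3789 A/J-only regions (29.5%) held a C57BL/6J peak, and 1644 C57BL/6J-only regions (16.1%) an A/J peak. The share of A/J-only peaks with a C57BL/6J HF peak was highest between 20% and 30% of the A/J list, at 144 of 167 (86.2%), and went down to 50.3% between 40% and 50% and 5.22% in the weakest 10%. For comparison, 90.1% of the shared regions held a peak in all 4 lists.

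**Figure D2:**
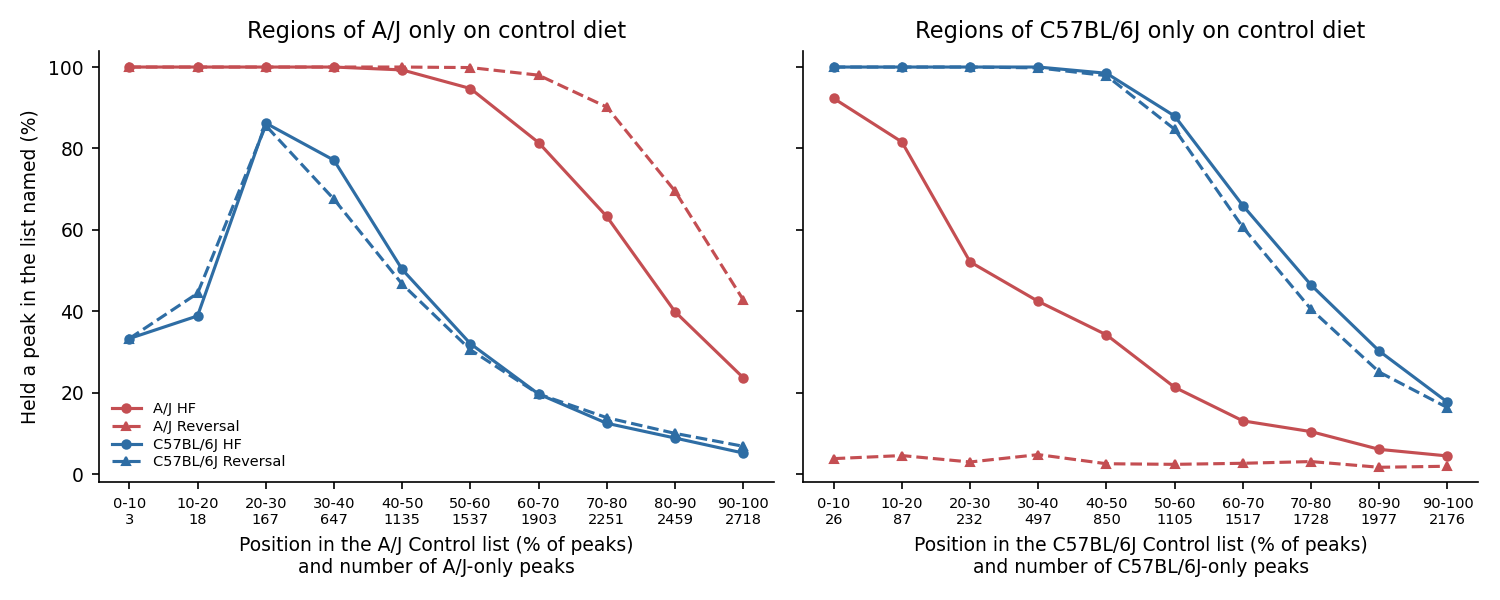
Percent of A/J-only regions (left) and C57BL/6J-only regions (right) that held a peak in each of the 4 HF and Reversal lists, by the position of the strain-only peak in its own control list, with the number of such peaks under each step. Right panel: at the strong end 24 of 26 C57BL/6J-only peaks were in the A/J HF list and 1 in the A/J Reversal list.

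By chromosome, the A/J-only share stayed near its value over all chromosomes, 28.0%, from 23.2% (21.4 to 25.04) on chromosome 3 to 31.5% (29.7 to 33.3) on chromosome 6. The C57BL/6J-only share, 22.3% over all chromosomes, spread more widely, from 15.4% (14.3 to 16.6) on chromosome 11 to 31.0% (29.1 to 33.0) on chromosome 3. A/J-only regions outnumbered C57BL/6J-only regions on 16 of 19 chromosomes, by 1045 to 565 on chromosome 11 and by 471 to 267 on chromosome 19. The order was turned round on chromosome 1, with 760 A/J-only and 838 C57BL/6J-only regions, on chromosome 3, with 490 and 655, and by a narrow margin on chromosome 14, with 463 and 466. These counts are of the full lists, of which the A/J list is the longer, and whether the order depends on list length was not tested.

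**Figure D3:**
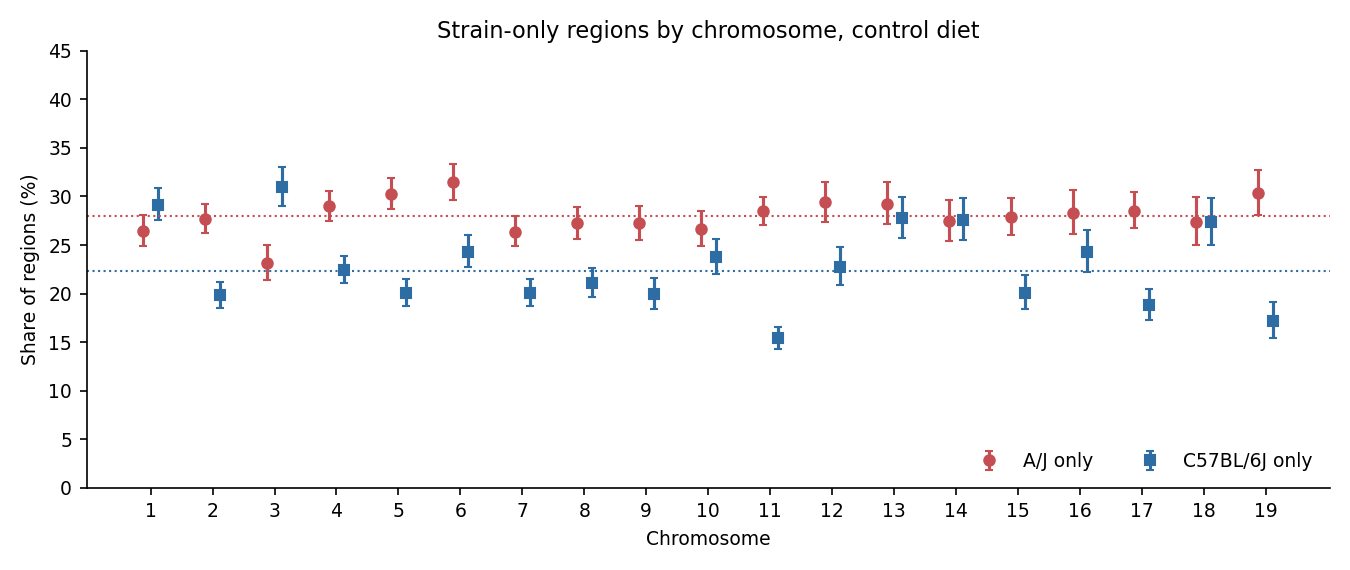
Percent of the regions of each chromosome that were A/J-only (circles) and C57BL/6J-only (squares), with 95% Wilson intervals that cover counting error only, and dotted lines at the shares over all chromosomes, 28.0% and 22.3%. The C57BL/6J-only share runs from 15.4% on chromosome 11 to 31.0% on chromosome 3.

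Within chromosomes the 2 classes lay in different surroundings. The nearest peak of the other strain was a median of 8.15 kb from an A/J-only summit and 44.9 kb from a C57BL/6J-only summit, and it was over 100 kb away for 3.58% of A/J-only and 38.1% of C57BL/6J-only peaks. The nearest other peak of the same list was a median of 4.18 kb from A/J-only peaks and 24.4 kb from C57BL/6J-only peaks. Peaks in shared regions had such a neighbour at 6.41 kb in the A/J list and 7.37 kb in the C57BL/6J list. A/J-only peaks were thus close to other peaks, and C57BL/6J-only peaks often stood alone.

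The genome was then divided into windows of 5 Mb, of which 490 held at least 20 regions. The A/J-only share per window had a median of 25.2% and exceeded 50% in 1 window, while the C57BL/6J-only share had a median of 26.2% and exceeded 50% in 85 windows. In windows of 10 Mb with at least 20 regions, the A/J-only share exceeded 50% in 0 windows and the C57BL/6J-only share in 38. In windows of 2 Mb with at least 20 regions, each share exceeded 50% in 20, so that the contrast was not seen there. The minimum kept 731 of 1222 windows at 2 Mb and 490 of 504 at 5 Mb. It thus left out more windows with few regions at 2 Mb, and the counts of the 2 sizes are not of like windows. Local density of open chromatin was counted from the HF lists, as the number of regions held by both strains on HF. In the 147 windows with under 20 such regions, 13.3% of the 4581 control-diet regions were A/J-only, 57.8% were C57BL/6J-only and 28.8% were shared. In the 71 windows with 100 or more, 29.9% of 16625 regions were A/J-only, 11.96% were C57BL/6J-only and 58.2% were shared. As counts, a window of the sparsest class held a mean of 4.15 A/J-only, 18.03 C57BL/6J-only and 8.99 shared regions, and a window of the densest class 69.9, 28.0 and 136. C57BL/6J-only regions were thus more numerous per window in dense parts too, and their smaller share there goes with the larger numbers of the other 2 classes. The density is not independent of the shares, because 97.4% of the regions shared on control diet held an A/J HF peak and 95.1% a C57BL/6J HF peak. Density classes were chosen after the data had been seen.

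**Figure D4:**
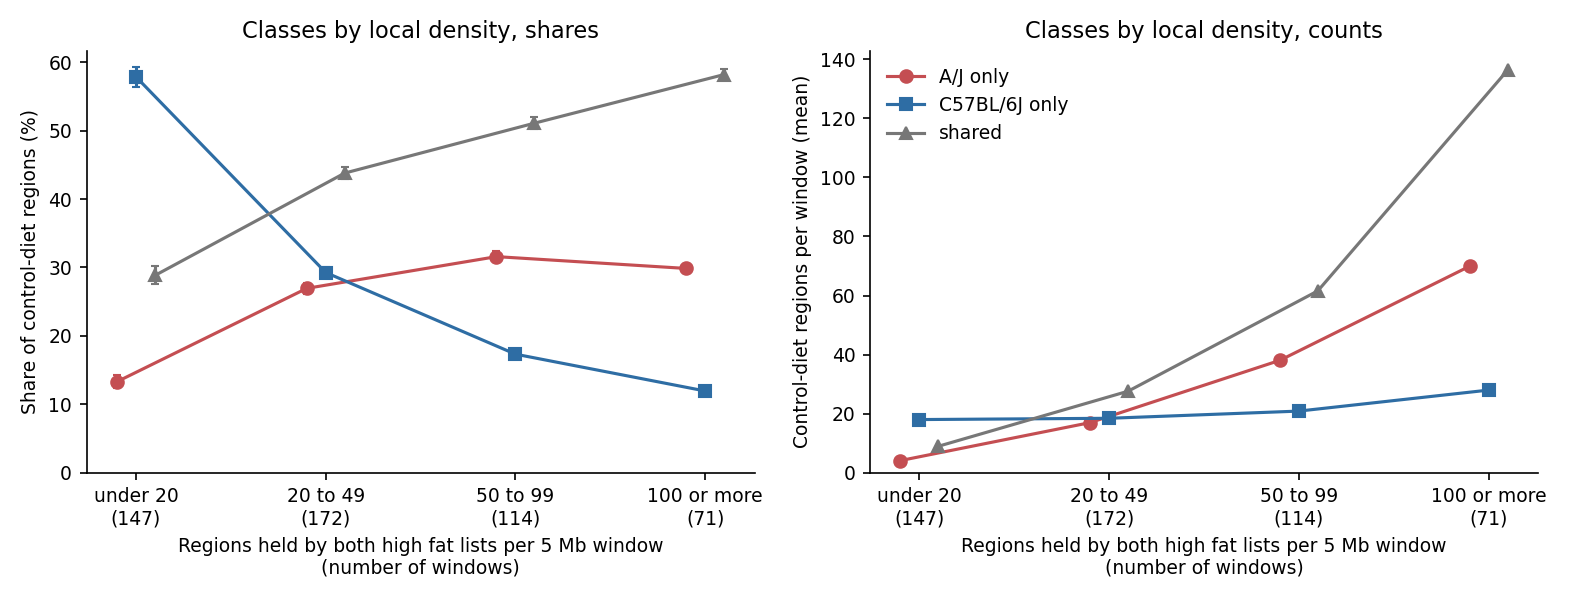
Percent (left, with 95% Wilson intervals) and mean number per window (right) of control-diet regions that were A/J-only, C57BL/6J-only or shared, in 5 Mb windows grouped by the number of regions that both strains held on HF. From the sparsest to the densest windows the mean number goes from 4.15 to 69.9 for A/J-only, from 18.03 to 28.0 for C57BL/6J-only and from 8.99 to 136 for shared regions.

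The windows with the highest A/J-only shares were on chromosome 8 at 115 to 120 Mb, with 44 A/J-only, 11 C57BL/6J-only and 32 shared regions, on chromosome 4 at 100 to 105 Mb, with 42, 12 and 34, and on chromosome 19 at 55 to 60 Mb, with 62, 13 and 59. In the window of chromosome 15 at 45 to 50 Mb all 22 regions were C57BL/6J-only. The windows of chromosome 10 at 100 to 105 Mb and of chromosome 3 at 45 to 50 Mb each held no A/J-only and 2 shared regions, beside 27 and 26 C57BL/6J-only regions. Uninterrupted runs of at least 10 regions of 1 class numbered 7 for A/J-only, 98 for C57BL/6J-only and 100 for shared regions. They held 77 of the 12838 A/J-only, 1343 of the 10195 C57BL/6J-only and 1152 of the 22764 shared regions. The longest A/J-only runs held 13 regions, on chromosome 17 from 30754622 to 30875096 and on chromosome 19 from 47423101 to 47504999. The longest C57BL/6J-only run held 32 regions over 6.32 Mb of chromosome 15, and the next held 25 regions within 1.61 Mb of chromosome 4, from 145635631 to 147241274.

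The widest strain-only peaks stood at different ranks. The widest A/J-only peaks measured 2628 bp, on chromosome 5 from 113574478 to 113577105, and 2452 bp, on chromosome 15 from 88914414 to 88916865, and stood at 72.7% and 57.4% of the A/J list. Each overlapped a peak in A/J Reversal and in C57BL/6J Reversal, but these peaks were narrower, at 880 and 510 bp in A/J and 952 and 313 bp in C57BL/6J. The widest C57BL/6J-only peaks measured 5177 bp, on chromosome 12 from 8636924 to 8642100, and 5123 bp, on chromosome 1 from 7379187 to 7384309, and stood at 20.4% and 19.8% of the C57BL/6J list. Both held peaks in C57BL/6J HF and Reversal and none in any A/J list. On chromosome 12 these peaks measured 4782 and 5596 bp, and on chromosome 1 only 1058 and 1788 bp.

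Shared regions were nearly all simple matches, since 21711 of 22764 (95.4%) held 1 peak of each strain. In these the A/J and C57BL/6J summits were a median of 11 bp apart and within 50 bp in 90.8%. The A/J peak was the wider one in 17850 (82.2%), with a median width of 666 bp in A/J and 549 bp in C57BL/6J. Ranks were correlated across these regions with Spearman's rho of 0.77, a description across regions of 2 lists. By more than 50 percentage points of list position, the A/J peak was the stronger in 458 regions and the C57BL/6J peak in 297. Chosen for the smallest sum of both ranks, the region on chromosome 2 from 98506210 to 98507704 ranked 1 in both, and those on chromosome 4 from 79648104 to 79651276 and chromosome 2 from 22442692 to 22446297 ranked 4 and 2 in A/J and 2 and 6 in C57BL/6J. The first had signals of 252.641 in A/J and 182.712 in C57BL/6J, against list medians of 0.3215 and 0.168. Whether signals so far above the median reflect open chromatin was not tested.

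The largest rank differences in favour of C57BL/6J lay on chromosome 17 from 13498755 to 13499196, at 98.8% of the A/J list and 3.38% of the C57BL/6J list, on chromosome 2 from 56873769 to 56874227, at 94.3% and 0.409%, and on chromosome 12 from 100982364 to 100982778, at 97.7% and 6.31%. All 3 C57BL/6J peaks were between 415 and 459 bp wide. In these 3 regions the A/J HF peak stood at 69.6%, 47.8% and 52.0% of its list, and A/J Reversal held a peak in the last alone, at 98.4%. Width and A/J lists thus showed the same picture as for the strongest C57BL/6J-only regions.

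The largest rank difference in favour of A/J lay on chromosome 4 from 62179467 to 62180239, at 0.352% of the A/J list and 80.8% of the C57BL/6J list. It was followed by chromosome 11 from 120350670 to 120351212, at 20.6% and 97.0%, and chromosome 15 from 79218461 to 79218980, at 14.5% and 89.7%. In these regions the C57BL/6J peak stood at 34.4%, 51.2% and 43.0% on HF and at 43.1%, 48.6% and 44.6% on Reversal. The A/J peak stood at 3.40%, 35.9% and 24.7% on HF and at 0.406%, 23.3% and 15.9% on Reversal. The C57BL/6J positions were thus less extreme on the other diets, where the A/J peak still ranked higher. The chromosome 4 region lay about 22.5 kb from the second strongest A/J-only region, so that the surrounding stretch was examined after these values had been seen. The bounds of the stretch, 24 kb before and 8 kb after that chromosome 4 region, were also set then. Counts and medians within the stretch depend on that choice.

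In 29.7 kb of chromosome 4, from 62156939 to 62186646, there were 16 regions, of which 8 were A/J-only, 1 was C57BL/6J-only and 7 were shared. The A/J peak ranked higher than the C57BL/6J peak in all 7 shared regions, with a median position of 1.88% in the A/J list and 33.1% in the C57BL/6J list. The difference recurred on the other diets, with medians of 8.32% in A/J HF and 2.48% in A/J Reversal against 33.6% in C57BL/6J HF and 29.4% in C57BL/6J Reversal. The 2 shared regions just before this stretch, within 100 kb, ranked lower in A/J, at 28.6% and 82.5% of the A/J list against 22.5% and 48.2% of the C57BL/6J list. Of the 8 A/J-only regions, 6 held an A/J HF peak, 5 an A/J Reversal peak and 1 a C57BL/6J HF or Reversal peak. The C57BL/6J-only region overlapped an A/J HF peak at 0.244% of that list, the same position as for the shared region just before it. It held no C57BL/6J HF peak and a C57BL/6J Reversal peak at 86.1%.

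**Figure D5:**
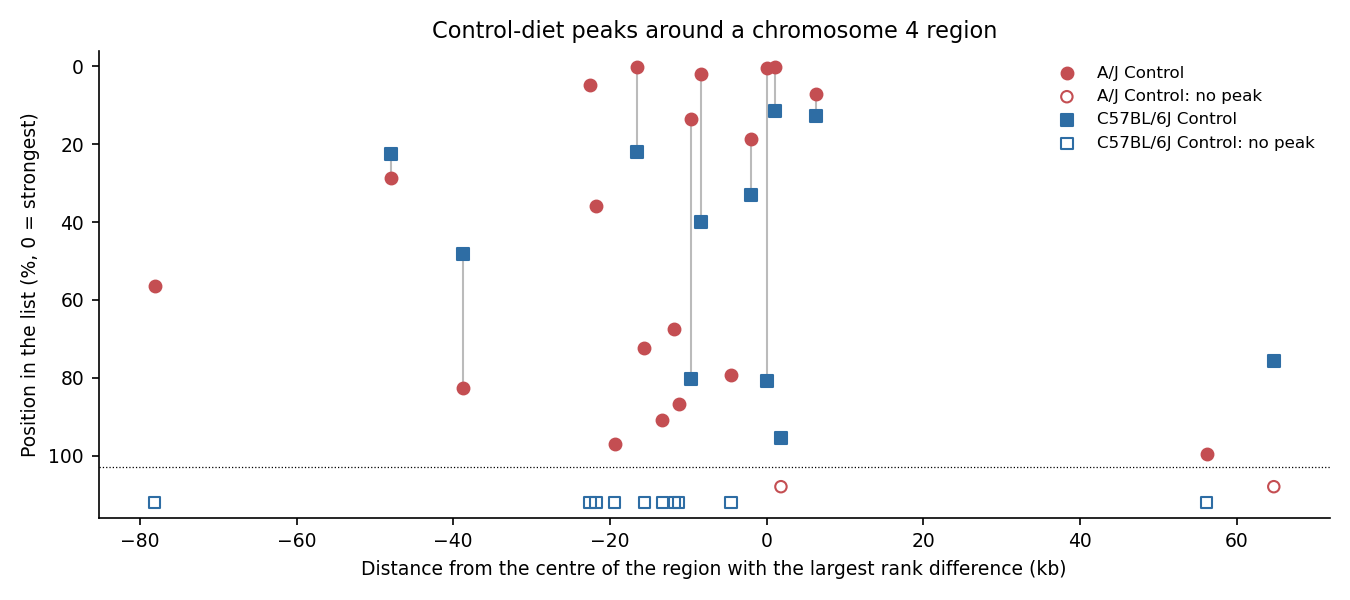
Position in the A/J (circles) and C57BL/6J (squares) control list, in percent with 0 as the strongest, of every peak within 100 kb of the chromosome 4 region with the largest rank difference, against distance in kb; grey lines join the peaks of a shared region and open symbols at the bottom mark a list without a peak. In the central 29.7 kb all 7 shared regions rank higher in A/J, and 8 further regions have an A/J peak only.

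Neighbouring regions with large rank differences were also looked for in the 1730 windows of 100 kb with at least 4 matched regions, a search added after the data had been seen. On chromosome 15 from 88700948 to 88750191, 4 regions had a median position of 23.3% in A/J and 75.02% in C57BL/6J, with differences, A/J minus C57BL/6J, from -62.8 to -0.43 percentage points, so that they did not all differ. On chromosome 2 from 181651946 to 181667302, 5 regions had medians of 60.0% in A/J and 9.09% in C57BL/6J, with differences from 40.0 to 61.8 percentage points. The next windows in each direction, on chromosomes 10 and 17, had differences from -49.7 to -4.89 and from -10.9 to 47.7 percentage points.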

How the data were processed

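FAIRE-seq peaks of mouse liver were used as 1 list per strain and diet, in the narrowPeak layout without a header. The deposited signal per peak is the authors' value, on a scale not stated, and the deposited summit offset is given in bp from the peak start. Per the submitters' processing notes the build was mm9, and TopHat, Bowtie2 and DESeq2 are listed without a role. The peak caller, its threshold and any pooling are not given in the sources used here. Strain and diet of a list are known from its name alone. Starts were taken as counted from 0, as the layout defines, and are printed counted from 1.

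Peaks were merged and classed in Python 3.11.15 with pandas 2.3.3 and numpy 2.4.6. The number of regions was checked against bedtools 2.31.1. Merging and classing were tested on simulated lists of well separated regions whose shared peaks always overlapped. Ranks are among peaks of chromosomes 1 to 19. No test was planned or run. Regions were named by rule: per strain-only class the 5 strongest and 2 widest, the shared regions with the 3 smallest rank sums and the 3 largest rank differences each way, and the 3 windows of 5 Mb with the highest share of each class. Other named regions and runs were chosen after their values were seen. The comparison, its members and the alternatives were chosen with earlier results of these data known. The 2 expression tables compare diets and were not used, and no sequence is printed, because a genome of build mm9 was not used here.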

Additional observations from a re-analysis of the deposited data

Results flagged for a closer look

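Chromosomes X and Y lie outside the comparison, and peaks were present there in both lists. On chromosome X there were 98 A/J-only, 911 C57BL/6J-only and 442 shared regions, so that the C57BL/6J-only share was 62.8%, above the highest share of chromosomes 1 to 19 (31.0%). On chromosome Y there were 1 A/J-only, 126 C57BL/6J-only and 26 shared regions. With 1 list per strain neither count was tested.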

How the results depend on the processing

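Counts of A/J-only, C57BL/6J-only and shared regions stayed within 1.5 times their value with an overlap of 50% of the shorter or of both peaks, with peaks within 500 bp merged, with 300 bp around each summit, with the strongest 30000 peaks of each list, and with windows with fewer than 20 regions of both HF lists left out, an alternative added after the data had been seen. So did the 2 strain-only counts when no peak of the other strain on any diet was allowed, also added after the data had been seen, which gives no shared count. Within that range the balance of the classes moved. With the strongest 30000 peaks of each list, the A/J-only, C57BL/6J-only and shared counts were 9611, 8921 and 20242. Without the sparse windows they were 12228, 7545 and 21443. With an overlap of 50% of both peaks, 42.5% of regions were shared. With the strongest 20000 peaks of each list the counts were 5370, 4998 and 14574, and with the strongest 10000 they were 2192, 2117 and 7801 with 64.4% of regions shared. Among peaks of the stronger 50% of a list set against the whole other list, 1970 were A/J-only and 1692 C57BL/6J-only. With the strongest 20000 peaks, the A/J-only share on chromosome 6 was 24.8% and the C57BL/6J-only share on chromosome 3 was 26.7%, and 40.6% of A/J-only and 22.2% of C57BL/6J-only regions held a peak of the other strain on HF or Reversal, where those lists too were limited to 20000. The ratio of median widths, A/J-only over shared peaks, was 0.493, and it was 0.509 in regions with 1 peak of a strain and 0.829 in the weakest 10% of the list. For C57BL/6J-only over shared peaks it was 0.552, and 1.00 in the weakest 10%. The median share per window was 29.7% for A/J-only and 17.9% for C57BL/6J-only regions in windows of 2 Mb, and 24.6% for C57BL/6J-only regions in windows of 10 Mb. At 2 Mb, 731 of 1222 windows held the required 20 regions, against 490 of 504 at 5 Mb, and 20 windows were over 50% in each class. No paired analysis was possible because each strain and diet has 1 list with no replicate number, and no replicate could be left out for the same reason. Depth per library is unknown, and a longer list could turn strain-only regions into shared ones.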
